A study of Mus musculus with 14 samples.

Results

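The genes described here are those of the lysosome's digestive machinery and of the proton pump that acidifies it, 18 named lysosomal genes and every gene whose symbol begins with Atp6v, the subunits of the vacuolar H+-ATPase (V-ATPase). They were chosen by symbol, with a minimum of 10 total counts in at least 6 libraries. Of 43 rows found by symbol, 33 passed: all 18 lysosomal genes and 15 of 25 Atp6v rows, out of 14641 genes that passed in the whole table of 36335 named rows. The nearest rows below the minimum were Atp6v0a4 and Atp6v1g2, which reached it in 4 libraries each. The members nearest above it reached it in 12 libraries: Atp6v0a1, Atp6v0c, Atp6v1c1, Atp6v1d, Atp6v1g1, Atp6v1h, Ctsz, Galns, Hexa, Lamp2, Mcoln1, Npc1 and Psap. The other 8 rows below it (Atp6v0c-ps1, Atp6v0c-ps2, Atp6v0d2, Atp6v1b1, Atp6v1c2, Atp6v1e2, Atp6v1fnb and Atp6v1g3) reached it in at most 1 library. All 33 members also passed the minimum for labelled RNA.

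Lysosomal hydrolases are made in the endoplasmic reticulum, carried to the lysosome by sorting receptors and work at acid pH. The V-ATPase supplies the acid: its cytosolic V1 sector splits ATP and turns the rotor of the membrane-bound V0 sector, which carries protons into the lumen. The kinase mTOR sits on the lysosome when active and keeps the transcription factors Tfeb and Tfe3 in the cytosol. When mTOR is inhibited these factors enter the nucleus and bind a short palindrome, the CLEAR element, in promoters of many lysosomal genes.

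All cells were mouse E14 embryonic stem cells held in a paused state by the mTOR inhibitor INK128 (200 nM) over 2 weeks on gelatin with serum and LIF, so mTOR inhibition is shared by every group. Mettl3-KO cells lack Mettl3, the catalytic subunit of the enzyme that puts m6A marks on mRNA, and WT cells carry it. Cells took up the thiolated uridine S4U (100 µM) for 12 h, with fresh medium every 3 h, and were collected 0, 1, 3 and 8 h after its removal. Iodoacetamide makes S4U read as C, so a T-to-C conversion marks RNA made before the chase. There were 2 Mettl3-KO libraries at each of the 4 times, and 1, 2, 1 and 2 WT libraries at 0, 1, 3 and 8 h. The labels name no clone and no way of making the knockout, and the source names of the Mettl3-KO 8 h libraries give another number after the E than the cell line field. Libraries read the 3' ends of RNA, and values are compared between libraries for 1 gene at a time.

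Mettl3 itself averaged 2.16 ± 1.45 CPM in Mettl3-KO libraries and 40.4 ± 20.7 CPM in WT libraries (SD, n = 8 and 6; CPM is the count scaled to the TMM-adjusted library total), a log2 change of -4.63 (edgeR adjusted p = 3.89e-07). Total counts were 6108570 to 26656352 in 12 libraries, called deep here. Mettl3-KO 3 h replicate 2 held 602485 counts and WT 1 h replicate 2 held 49159, of which 659 and 95 counts belonged to the 33 members. Results are given with all 14 libraries and with the 12 deep ones. The 2 lines also differ in Y-linked RNA: Eif2s3y was at 40.7 to 70.2 CPM in deep Mettl3-KO libraries and at 0.131 to 0.957 CPM in deep WT libraries. WT 1 h replicate 2 stood at 40.6 CPM for this gene, like Mettl3-KO libraries and unlike the other WT libraries, and its 1 Mettl3 count does not check its label. As 1 count there is worth 20.3 CPM, that Eif2s3y level rests on very few reads. Uty, another Y-linked gene, stood at 0 in this library. Its Mettl3-KO median was 12.2 CPM, less than 1 count is worth there, so this 0 does not tell the lines apart. The embryonic stem cell markers were present in all libraries, with a summed level of 3663 to 5594 CPM in deep Mettl3-KO libraries and 4923 to 6384 CPM in deep WT libraries. In whole-population RNA, fewer cells of one type and less RNA per cell cannot be told apart.

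The promoters of 25 members were found in the RefSeq table of build GRCm38.p6, 29 windows from 250 bases before to 50 after a gene start. The core of the CLEAR element, TCACGTGA, which reads the same on both strands, was in 6 of these windows (20.7%), against 320 of all 32851 windows (0.974%). Its inner CACGTG, which every TCACGTGA also holds, was in 10 member windows (34.5%), against 7.15% of all windows. All 6 members with the longer motif are shown. Capitals mark the motif, and each run is read 5' to 3' on the gene's strand.
Atp6v0d1 (chr8:105566050-105566079, minus strand): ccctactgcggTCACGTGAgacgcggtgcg
Atp6v0e (chr17:26676387-26676416, plus strand): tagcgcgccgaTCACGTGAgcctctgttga
Atp6v1a (chr16:44139373-44139402, minus strand): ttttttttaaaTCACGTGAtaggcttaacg
Ctsa (chr2:164833749-164833778, plus strand): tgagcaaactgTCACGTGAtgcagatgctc
Ctsa (chr2:164833766-164833795, plus strand): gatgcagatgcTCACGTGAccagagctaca
Ctsd (chr7:142387908-142387937, minus strand): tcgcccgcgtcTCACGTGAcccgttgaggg
Mcoln1 (chr8:3500462-3500491, plus strand): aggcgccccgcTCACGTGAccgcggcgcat
In Atp6v1a, Ctsd and Mcoln1 the motif ended 124, 91 and 38 bases before the start that its window was drawn on, and in Ctsa 5 bases before it with another match just after it. For Atp6v1a and Ctsa that start is not the outermost one, and the motif lies inside the gene's annotated span. In Atp6v0d1 it lay across the window's start, and in Atp6v0e within the first transcribed bases. The match describes these letters only. The total RNA of these 6 genes did not move one way: Atp6v0d1 and Mcoln1 fell in Mettl3-KO cells, Atp6v0e rose, and Atp6v1a, Ctsa and Ctsd did not pass the test in the 14 libraries.

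Total RNA of the members was mostly lower in Mettl3-KO cells. With all 14 libraries, 7 of 33 members fell (Hexa, Atp6v0d1, Galns, Mcoln1, Scarb2, Atp6v1b2 and Lamp1), where 9.99% of all genes tested were called lower, and 1 rose (Atp6v0e), where 12.1% of all genes were called higher. The median log2 change was -0.43 over the members and 0.05 over all genes, and 29 of 33 members lay below 0. With the 12 deep libraries 15 members fell, against 19.2% of all genes, and 2 rose (Atp6v0e and Ctsz), against 21.8%. The 8 added to the fallers were Atp6v0c, Atp6v0e2, Atp6v1a, Neu1, Atp6v1d, Atp6v1h, Atp6v0a1 and Atp6v0b. Summed over the 33 members, total RNA stood at 2569 to 3185 CPM in the 7 deep Mettl3-KO libraries and at 3642 to 4000 CPM in the 5 deep WT libraries, with no overlap. The number of members that fell was 4 without either Mettl3-KO 8 h replicate and 12 without the shallow Mettl3-KO 3 h replicate 2, the extremes when 1 library at a time was left out.

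**Figure D1:**
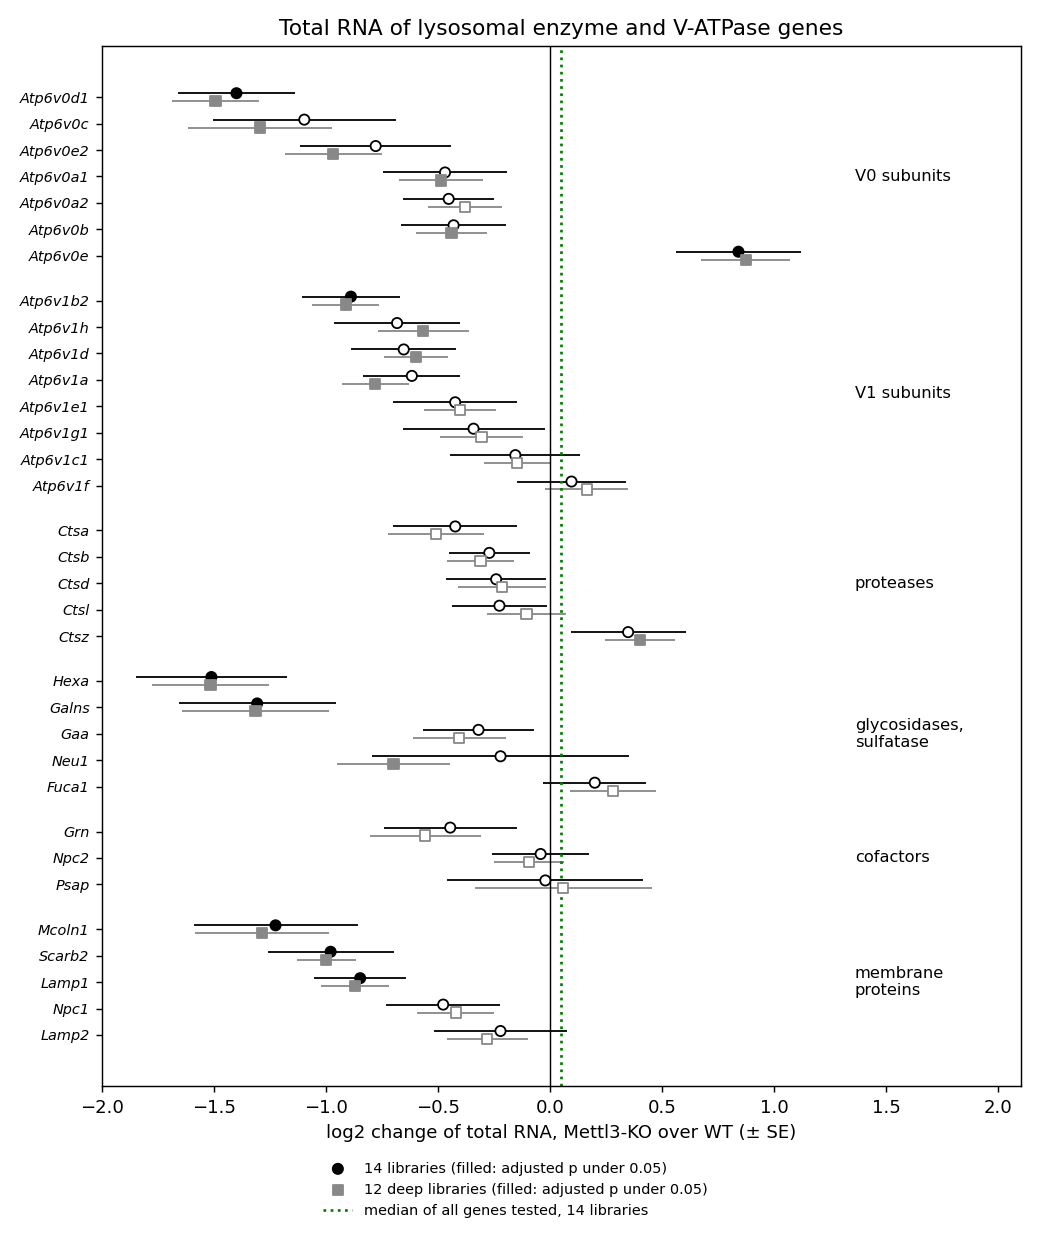
Log2 change of total RNA, Mettl3-KO over WT, with its standard error, for the 33 members by role. Black circles are fits to 14 libraries, grey squares to the 12 deep ones, filled symbols have an adjusted p under 0.05, and the dotted line is the median of all genes; Hexa, Atp6v0d1, Galns and Mcoln1 are the filled circles farthest left, and Atp6v0e is the only one right of 0.

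Among the membrane-sector V0 subunits, 1 of 7 fell and 1 rose with all 14 libraries, where 9.99% of all genes were lower and 12.1% higher. Atp6v0d1 (chromosome 8, 105524461 to 105566064 in RefSeq's GRCm38.p6, as are the gene positions that follow), which couples the stalk to the rotor, was among the members that changed most: in Mettl3-KO libraries the lowest value was 42.8, the median 60.3 and the highest 76 CPM, against 60.9, 150.1 and 261 CPM in WT libraries. All deep Mettl3-KO libraries lay below all deep WT libraries, and the shallow WT library lay among the Mettl3-KO values. Its log2 change was -1.40 (standard error 0.26, edgeR adjusted p = 0.00184), and the call held without any 1 library. Atp6v0e (chromosome 17, 26676396 to 26699647), a small hydrophobic subunit of V0, went the other way, with a lowest value of 36.4, a median of 97.5 and a highest value of 149.6 CPM in Mettl3-KO libraries, against 20.3, 52.3 and 87.3 CPM in WT libraries. The deep groups overlapped, the WT library at 0 h standing among the Mettl3-KO values. Its log2 change was 0.84 (standard error 0.28, edgeR adjusted p = 0.0438) with 14 libraries and 0.87 (standard error 0.20, edgeR adjusted p = 0.00198) with 12. This call was lost in 10 of the 14 fits that left out 1 library, with adjusted p between 0.0606 and 0.106, and held without WT 0 h replicate 1, Mettl3-KO 0 h replicate 1 or either shallow library.

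The paralogue of Atp6v0e, Atp6v0e2 (chromosome 6, 48537569 to 48541801), had 6.75, 12 and 39.2 CPM (lowest, median, highest) in Mettl3-KO libraries, against 0, 20.4 and 24 CPM in WT libraries. Its highest Mettl3-KO value and its WT value of 0 both came from the shallow libraries, and the deep groups did not overlap. The log2 change was -0.78 (standard error 0.34, edgeR adjusted p = 0.117) with 14 libraries and -0.97 (standard error 0.22, edgeR adjusted p = 0.00166) with the 12 deep ones. Atp6v0b, a proteolipid of the rotor ring, had a lowest value of 58.7, a median of 94.3 and a highest value of 135 CPM in Mettl3-KO libraries, against 40.6, 126 and 151 CPM in WT libraries. Its log2 change was -0.43 (standard error 0.23, edgeR adjusted p = 0.212), and it passed with the 12 deep libraries at -0.44 (standard error 0.16, edgeR adjusted p = 0.0335). Atp6v0c, the other ring proteolipid listed, stood at 2.33 to 5.02 CPM in the 7 deep Mettl3-KO libraries, against 4.47 to 17.7 CPM in the 5 deep WT libraries. Near-identical copies (Atp6v0c-ps1 and Atp6v0c-ps2) could share its reads, so its log2 change of -1.30 (standard error 0.32, edgeR adjusted p = 0.00377) in deep libraries is uncertain. The 2 forms of the large subunit that holds the proton path, Atp6v0a1 and Atp6v0a2, gave -0.47 ± 0.28 and -0.45 ± 0.20 (log2 change ± SE, 14 libraries), neither past the test.

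Among the cytosolic V1 subunits, 1 of 8 fell and none rose with all 14 libraries, against 9.99% and 12.1% of all genes. Atp6v1b2 (chromosome 8, 69088736 to 69113718), which with Atp6v1a forms the ATP-splitting ring, had 112, 183 and 248 CPM (lowest, median, highest) in Mettl3-KO libraries, against 183, 341 and 455 CPM in WT libraries. Every deep Mettl3-KO library lay below every deep WT library. The log2 change was -0.89 (standard error 0.22, edgeR adjusted p = 0.0101), and no left-out library ended the call. Its partner Atp6v1a, the catalytic subunit, stood at 139.6 to 211 CPM in the 7 deep Mettl3-KO libraries, against 254 to 290.3 CPM in the 5 deep WT libraries, again with no overlap. Its log2 change was -0.62 (standard error 0.22, edgeR adjusted p = 0.0554) with 14 libraries and -0.78 (standard error 0.15, edgeR adjusted p = 0.000467) with 12. Atp6v1d, of the central stalk, and Atp6v1h, a regulatory subunit, passed only with the deep libraries, at -0.60 (standard error 0.14, edgeR adjusted p = 0.0028) and -0.57 (standard error 0.20, edgeR adjusted p = 0.0332). The stalk and collar subunits Atp6v1e1, Atp6v1g1 and Atp6v1c1 gave log2 changes of -0.42 ± 0.28, -0.34 ± 0.32 and -0.16 ± 0.29 (± SE, 14 libraries) and did not pass in either set. Atp6v1f (chromosome 6, 29467783 to 29470509), a small subunit of the central stalk, was the V1 gene nearest to no change, with 123, 231 and 397 CPM (lowest, median, highest) in Mettl3-KO libraries, against 162, 225 and 259.7 CPM in WT libraries. The WT range lay inside the Mettl3-KO range, and its log2 change was 0.09 (standard error 0.24, edgeR adjusted p = 0.835).

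Of the 5 sugar- and sulfate-removing enzymes, Hexa and Galns fell with all 14 libraries, where 9.99% of all genes did. Hexa (chromosome 9, 59539540 to 59565109), the alpha subunit of the hexosaminidase that breaks down GM2 ganglioside, had a lowest value of 5.59, a median of 20.8 and a highest value of 30.6 CPM in Mettl3-KO libraries, against 20.3, 48.8 and 83.8 CPM in WT libraries. All deep Mettl3-KO libraries were below all deep WT libraries, and the lowest values of each genotype were the shallow libraries. Its log2 change of -1.51 (standard error 0.34, edgeR adjusted p = 0.00557) was the largest of the 33 and held without any 1 library. Galns (chromosome 8, 122578237 to 122611701), a sulfatase for keratan sulfate, was counted little: in Mettl3-KO libraries the lowest value was 1.81, the median 3.05 and the highest 4.5 CPM, against 0, 7.68 and 9.65 CPM in WT libraries. Deep groups did not overlap, though the WT library at 0 h lay just above the highest Mettl3-KO value. The log2 change was -1.31 (standard error 0.35, edgeR adjusted p = 0.0155), with adjusted p of 0.0544 and 0.0566 when Mettl3-KO 8 h replicate 1 or replicate 2 was left out. Fuca1 (chromosome 4, 135920726 to 135940300), which removes fucose, did not pass: in Mettl3-KO libraries the lowest value was 27.9, the median 38.7 and the highest 45.2 CPM, against 25.4, 32.1 and 49.8 CPM in WT libraries, with log2 change 0.20 (standard error 0.23, edgeR adjusted p = 0.597) and overlapping groups. Gaa, which splits glycogen, gave -0.32 (standard error 0.25, edgeR adjusted p = 0.399). Neu1, the sialidase, gave -0.22 (standard error 0.57, edgeR adjusted p = 0.839) with all libraries and -0.70 (standard error 0.25, edgeR adjusted p = 0.0334) with the deep ones. Its value in the shallow Mettl3-KO 3 h replicate 2 was 101 CPM, against 6.46 to 10.7 CPM in the other 7 Mettl3-KO libraries.

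None of the 5 proteases and 3 cofactors, the soluble contents that cut proteins or help other enzymes, passed with all 14 libraries by edgeR, and none had an unadjusted p under 0.05. Over all genes 9.99% were called lower and 12.1% higher. Ctsd, the aspartic protease cathepsin D, had 101, 163 and 272 CPM (lowest, median, highest) in Mettl3-KO libraries, against 163, 190.0 and 287 CPM in WT libraries, with log2 change -0.24 (standard error 0.22, edgeR adjusted p = 0.492). The groups overlapped. Ctsl, a cysteine protease, had a lowest value of 63.6, a median of 104 and a highest value of 149 CPM in Mettl3-KO libraries, against 64, 110.0 and 162 CPM in WT libraries, with log2 change -0.23 (standard error 0.21, edgeR adjusted p = 0.5). Ctsb, a cysteine protease, and Ctsa, which also protects Neu1, gave -0.27 ± 0.18 and -0.42 ± 0.28 (log2 change ± SE). Ctsz, a carboxypeptidase, was the protease on the other side of 0, at 0.35 ± 0.26 with 14 libraries. It passed with the deep ones at 0.40 (standard error 0.15, edgeR adjusted p = 0.0459), where it stood at 58.2 to 78.8 CPM in the 7 deep Mettl3-KO libraries, against 44.2 to 55.6 CPM in the 5 deep WT libraries with no overlap. Npc2, which hands cholesterol to Npc1, had 126, 154 and 253 CPM (lowest, median, highest) in Mettl3-KO libraries, against 81.2, 181 and 204 CPM in WT libraries, with log2 change -0.04 (standard error 0.22, edgeR adjusted p = 0.925). Grn (chromosome 11, 102430507 to 102436809), progranulin, had 109, 219.9 and 252 CPM (lowest, median, highest) in Mettl3-KO libraries, against 101, 263 and 405 CPM in WT libraries, with log2 change -0.45 (standard error 0.30, edgeR adjusted p = 0.32). The 2 lowest deep values of Grn were the Mettl3-KO 8 h libraries and the highest was WT 8 h replicate 2. Psap (chromosome 10, 60277628 to 60302600), the precursor of the saposins that lift lipids to their enzymes, was listed low, with a lowest value of 2.8, a median of 5.16 and a highest value of 11.6 CPM in Mettl3-KO libraries, against 3.35, 4.89 and 20.3 CPM in WT libraries, and its log2 change was -0.02 (standard error 0.44, edgeR adjusted p = 0.982). The genotypes overlapped for Ctsl, Npc2, Grn and Psap.

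Of the 5 membrane proteins, 3 fell with all 14 libraries, where 9.99% of all genes did. Lamp1 (chromosome 8, 13159161 to 13175338), the main coat glycoprotein of the lysosomal membrane and the member with the most counts, had 173, 302 and 377 CPM (lowest, median, highest) in Mettl3-KO libraries, against 304, 545 and 695 CPM in WT libraries. The deep groups did not overlap, and the shallow WT library at 304 CPM stood among the Mettl3-KO values. Its log2 change was -0.85 (standard error 0.20, edgeR adjusted p = 0.00871), kept without any 1 library. Scarb2 (chromosome 5, 92441311 to 92505657), the receptor that brings beta-glucocerebrosidase to lysosomes, had a lowest value of 33.6, a median of 100.0 and a highest value of 128 CPM in Mettl3-KO libraries, against 40.6, 188 and 223 CPM in WT libraries. Both lowest values came from the shallow libraries, and the deep groups did not overlap. The log2 change was -0.98 (standard error 0.28, edgeR adjusted p = 0.0224). Leaving out WT 0 h, 1 h or 3 h replicate 1, WT 8 h replicate 1 or either Mettl3-KO 8 h library gave adjusted p between 0.0539 and 0.0917 for Scarb2. Mcoln1 (chromosome 8, 3500519 to 3515232), the calcium channel of the lysosomal membrane, had 5.59, 10.4 and 16 CPM (lowest, median, highest) in Mettl3-KO libraries, against 0, 20.3 and 39 CPM in WT libraries. The WT library at 0 h lay inside the Mettl3-KO range and the other deep WT libraries above it. The log2 change was -1.23 (standard error 0.37, edgeR adjusted p = 0.0271), lost without WT 1 h or 3 h replicate 1, WT 8 h replicate 2 or either Mettl3-KO 8 h library (adjusted p 0.0604 to 0.0942). Lamp2, a coat glycoprotein, and Npc1, the cholesterol exporter, gave -0.22 ± 0.30 and -0.48 ± 0.25 (log2 change ± SE) and did not pass.

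**Figure D2:**
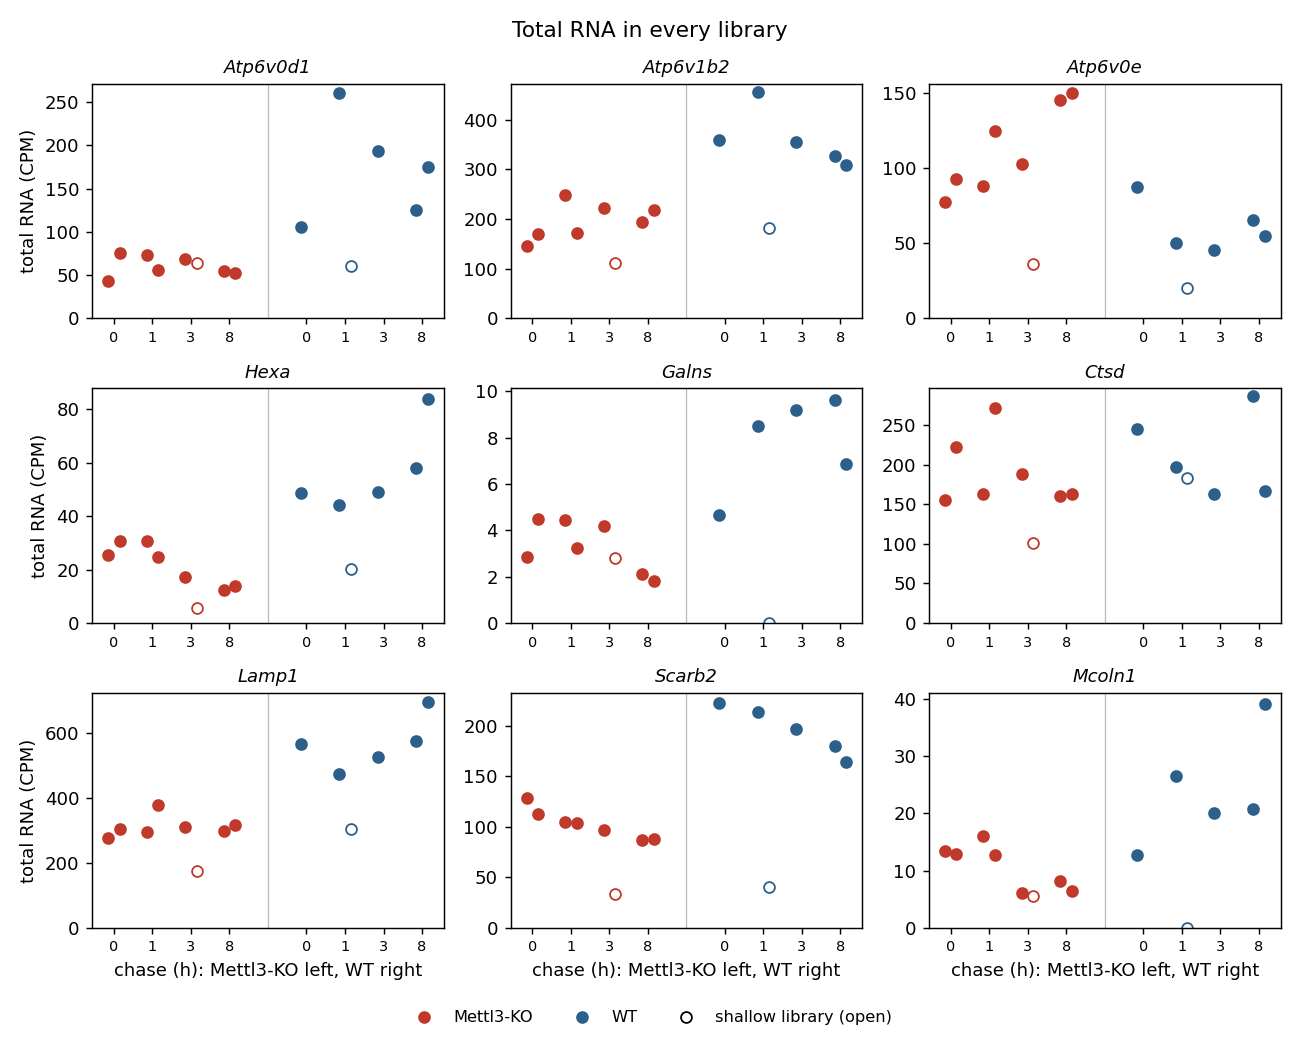
Total RNA (CPM) of 9 members in every library, by hours of chase, Mettl3-KO on the left and WT on the right of each panel; open points are the 2 shallow libraries. Atp6v0d1, Atp6v1b2, Hexa, Galns, Lamp1 and Scarb2 show separate deep groups, and Ctsd shows overlapping ones.

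Total RNA of few members moved differently in the genotypes over the chase. With 14 libraries no member, and no gene at all, differed in slope between Mettl3-KO and WT by edgeR; at an unadjusted p under 0.05 there were 5 members and 728 genes, and DESeq2 called 3 members, each with the lower slope in Mettl3-KO. With the 12 deep libraries Hexa and Grn differed, at -0.23 and -0.21 log2 per hour (adjusted p = 0.0273 and 0.0459), where 0.301% of all genes were called lower and 0.239% higher. Hexa stood at 25.5 and 30.6 CPM at 0 h and 12.2 and 13.8 CPM at 8 h in Mettl3-KO libraries, against 48.5 CPM at 0 h and 57.9 and 83.8 CPM at 8 h in WT libraries. Grn stood at 215 to 252 CPM up to 3 h and at 109 and 135 CPM at 8 h in deep Mettl3-KO libraries, against 173 to 279 CPM up to 3 h and 266 and 405 CPM at 8 h in deep WT libraries. Both were lowest at 8 h in Mettl3-KO among deep libraries. Within deep Mettl3-KO libraries alone, total RNA fell over time for Hexa, Grn and Ctsa, where 2.20% of all genes fell, and rose for Atp6v1f, where 2.14% rose.

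Labelled RNA, the conversion count scaled by the library's total RNA, was lower at the start of the chase for most members. At 0 h 1 of 33 members was called lower in Mettl3-KO cells, Atp6v0e2, where 6.27% of all genes were called lower. None was called higher, also at an unadjusted p under 0.05 and by DESeq2, where 1.35% of all genes were. The median log2 difference was -0.77 over the members and -0.35 over all genes. Atp6v0e2 differed by -2.66 (SE 0.76, edgeR adjusted p = 0.0133), and without Mettl3-KO 0 h replicate 1 or WT 1 h replicate 1 its adjusted p was 0.051 and 0.077. With the 12 deep libraries 7 members were lower (Scarb2, Atp6v1b2, Atp6v0e2, Atp6v1a, Atp6v0d1, Atp6v1d and Lamp1), against 8.53% of all genes lower and 1.58% higher. Their log2 differences ran from -2.71 for Atp6v0e2 to -1.11 for Lamp1, and all 7 also had lower total RNA in those libraries. Leaving out 1 library gave between 0 and 6 members, 6 without WT 1 h replicate 2, 4 without Mettl3-KO 3 h replicate 1 and 2 without Mettl3-KO 3 h replicate 2. When conversion counts were scaled by their own TMM factors, the median of all genes moved to 0.06 and no member was called. All genes then split into 385 higher and 491 lower, against 171 and 795.

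The labelled share, conversion counts as a share of a gene's own total counts, takes the gene's level out. It was lower at 0 h in Mettl3-KO cells across the library: 26.3% ± 0.337 (SD, n = 2) of all counts against 39.4% in the 1 WT library. For the members together it was 32% ± 0.752 (SD, n = 2) against 45.6%. Among deep libraries WT has 1 at 0, 1 and 3 h, and all members were read in the same libraries, so their number does not replicate a difference. Over genes with at least 100 counts in each deep library, the median share at 0 h was 30.9% in Mettl3-KO and 45.7% in WT. At 8 h it was 2.52% and 2.30%. Means over deep libraries were lower in Mettl3-KO for 31 of 33 members when the chase began and for 28 after 1 h. After 3 h these means were lower for 18 and higher for 15, and after 8 h lower for 11 and higher for 22. The library as a whole took a similar course, with 26.0% of all counts labelled in Mettl3-KO against 30.8% in WT after 1 h. Its labelled share was 18.5% against 19.9% after 3 h and 4.93% against 4.12%, then higher in Mettl3-KO, after 8 h. The test of the share at 0 h called no member by edgeR or DESeq2, where edgeR called 0.00789% of all genes lower. At an unadjusted p under 0.05 there were 2 members by edgeR, Grn and Atp6v1f, and 4 by DESeq2. The median log2 difference was -0.42 over the members and -0.41 over all genes, and with the deep libraries again no member was called, against 0.126% of all genes lower. Member by member at 0 h, shares ran from 15.2% (Mcoln1) to 55.0% (Fuca1) with a median of 32.2% in Mettl3-KO libraries, and from 25.4% (Atp6v0e2) to 67.0% (Atp6v1h) with a median of 45% in the WT library. At 8 h the median member share was 4.67% in Mettl3-KO and 3.01% in WT.

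Label left the member RNAs in both genotypes. Labelled RNA fell over the hours for 29 of 33 members in Mettl3-KO cells, where 88.2% of all genes fell, and for 32 of 33 in WT cells, where 91.4% did. The exceptions were Fuca1, Psap, Atp6v1f and Galns in Mettl3-KO and Galns in WT. The median member rate corresponds to a half-life of 2.83 h in Mettl3-KO and 2.11 h in WT cells, and that of all genes to 2.12 h and 1.80 h, with no correction for cell division. Loss was slower in Mettl3-KO cells for 3 members, Fuca1, Psap and Atp6v1f, where 2.40% of all genes were slower. For Fuca1 the part of a T-to-C difference in the sequence of a line was not tested. No member was called faster by edgeR or DESeq2 (2 at an unadjusted p under 0.05 by each), where 0.205% of all genes were. The median difference in rate was 0.09 log2 per hour over the members and 0.10 over all genes. Scaled by the conversion counts' own TMM factors, the median of all genes moved to 0.01 and 1 member was slower, while all genes split into 186 slower and 120 faster, against 304 and 26. Only 1 member was slower without Mettl3-KO 0 h replicate 1, WT 1 h replicate 1 or any 1 of the 4 libraries at 8 h. Over all genes the number slower was then between 60 (without WT 8 h replicate 2) and 146, and it was 514 without WT 3 h replicate 1 and 475 without Mettl3-KO 3 h replicate 2. With the 12 deep libraries Atp6v0e joined the 3, against 5.06% of all genes slower and 0.300% faster. By the labelled share the members with slower loss were Fuca1, Grn and Atp6v1f, against 3.51% of all genes slower and 0.260% faster. The deep libraries added Ctsd, against 5.87% and 0.308%.

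**Figure D3:**
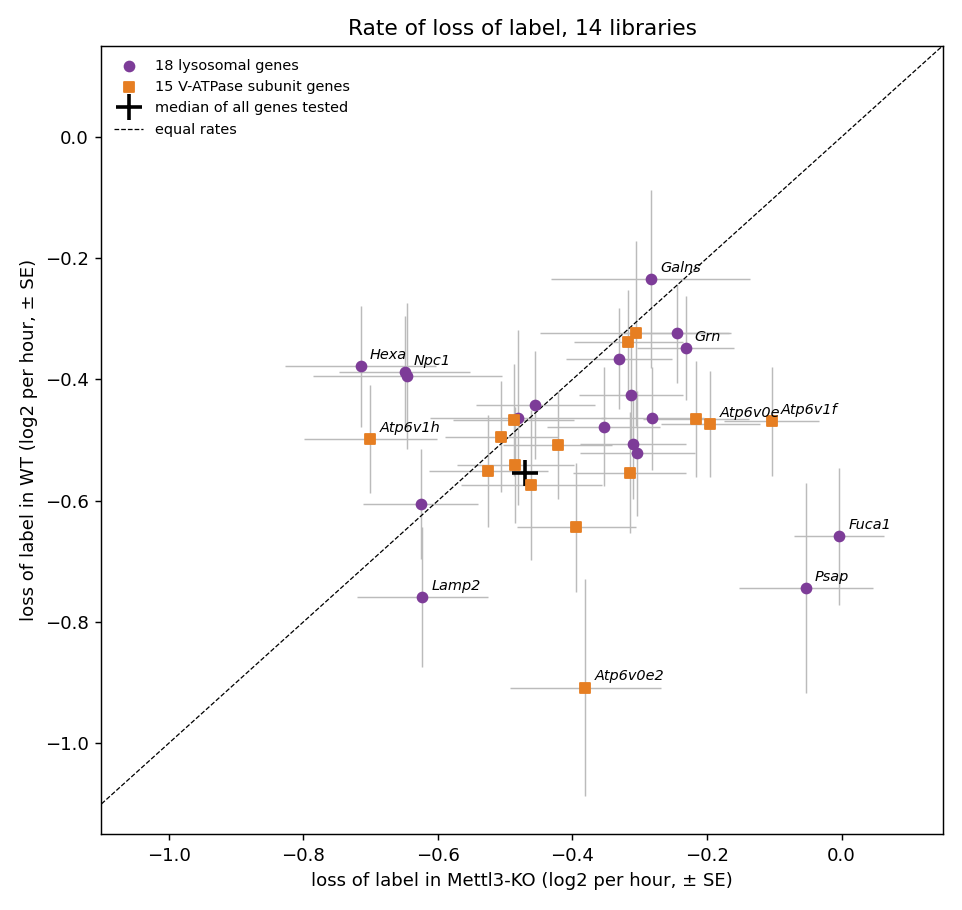
Rate of loss of label (log2 per hour, with standard errors) in Mettl3-KO (horizontal) and WT (vertical) for the 33 members, 14 libraries. Fuca1 and Psap lie near 0 on the Mettl3-KO axis, most other members lie near the dashed line of equal rates, and the cross is the median of all genes.

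The labelled share of Fuca1 stayed high in the deep Mettl3-KO libraries through 8 h. Fuca1 carried label on 46.8% and 63.2% of its counts at 0 h, 48.3% and 54.1% at 1 h, 51.5% and 10% at 3 h and 47.7% and 50.5% at 8 h in Mettl3-KO libraries, the second value at 3 h being that of the shallow library. In WT libraries its labelled shares were 34% at 0 h, 25.3% and, in the shallow library, 50% at 1 h, 14% at 3 h, and 0.546% and 0.612% at 8 h. Deep Mettl3-KO libraries lay between 46.8% and 63.2% at every time, while deep WT libraries were lower at each later time and near 0 at 8 h, with no overlap at any time. The 95% Wilson intervals at 8 h, which cover counting error only, were 42.9% to 52.5% and 47.6% to 53.3% in Mettl3-KO and 0.186% to 1.59% and 0.168% to 2.2% in WT. The shallow Mettl3-KO library, with 10 counts for the gene, went against the other Mettl3-KO libraries (1.79% to 40.4%). Fuca1 was the only member with a mean share over 20% at 8 h. Among genes with at least 100 counts in both 8 h libraries, 73 of 9072 (0.805%) were over 20% in Mettl3-KO and 43 of 7609 (0.565%) in WT. Fuca1 ranked 5 from the top in Mettl3-KO. The rate of loss was -0.00336 ± 0.07 log2 per hour in Mettl3-KO and -0.66 ± 0.11 in WT (± SE), the WT rate being a half-life of 1.52 h and the Mettl3-KO rate not passing the test against 0. The difference was 0.66 log2 per hour (SE 0.13, edgeR adjusted p = 0.00248), and by the labelled share 0.70 log2 per hour (SE 0.10, edgeR adjusted p = 2.23e-05). Both held in all alternatives run. A conversion count does not tell label from a T-to-C difference in the sequence of a line, and all 14 libraries came from cells given S4U, so the part of such a difference was not tested.

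Psap and Atp6v1f also lost labelled RNA more slowly in Mettl3-KO cells. Psap carried label on 35% and 46.7% of its counts at 0 h, 38.5% and 34.4% at 1 h, 27.2% and 0% at 3 h and 19.4% and 11.4% at 8 h in Mettl3-KO libraries, the second value at 3 h being that of the shallow library. In WT libraries its labelled shares were 48.5% at 0 h, 30.9% and, in the shallow library, 0% at 1 h, 30.2% at 3 h, and 1.72% and 0% at 8 h. Up to 3 h the deep values of both genotypes lay between 27.2% and 48.5%, and at 8 h both Mettl3-KO values lay above both WT values, on few counts: the WT 8 h intervals were 0.305% to 9.14% and 0% to 14.9%. The difference in rate of loss was 0.69 log2 per hour (SE 0.20, edgeR adjusted p = 0.0361), the rates being -0.05 ± 0.10 in Mettl3-KO and -0.74 ± 0.17 in WT (log2 per hour ± SE). By the labelled share Psap did not pass, at 0.37 log2 per hour (SE 0.16, edgeR adjusted p = 0.196). The first call was lost in 7 of the 14 fits without 1 library (adjusted p 0.0549 to 0.134): without Mettl3-KO 0 h replicate 1, 1 h replicate 2 or either 8 h library, or without WT 1 h replicate 1 or either WT 8 h library.

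Atp6v1f carried label on 30.1% and 36% of its counts at 0 h, 30.4% and 32.6% at 1 h, 26.4% and 15.9% at 3 h and 10.2% and 9.31% at 8 h in Mettl3-KO libraries, the second value at 3 h being that of the shallow library. In WT libraries its labelled shares were 48% at 0 h, 35% and, in the shallow library, 37.5% at 1 h, 29.9% at 3 h, and 2.99% and 4.58% at 8 h. At 0 h both Mettl3-KO shares lay below the WT share, and at 8 h both lay above both WT shares. Rates of loss for Atp6v1f were -0.10 ± 0.07 log2 per hour in Mettl3-KO and -0.47 ± 0.09 in WT (± SE), half-lives of 9.63 h and 2.13 h. The Mettl3-KO rate did not pass the test against 0 (edgeR adjusted p = 0.156), so the 9.63 h is uncertain. By the labelled share the half-lives were 4.38 h in Mettl3-KO and 2.12 h in WT. The difference in rate was 0.37 log2 per hour by labelled RNA (SE 0.11, edgeR adjusted p = 0.0412), and by the labelled share 0.24 log2 per hour (SE 0.07, edgeR adjusted p = 0.0297). Each call was lost in 8 of the 14 fits without 1 library, with adjusted p up to 0.211 and 0.208, both without WT 8 h replicate 1. Those 8 leave out either Mettl3-KO 0 h library, Mettl3-KO 1 h replicate 1, either Mettl3-KO 8 h library, WT 1 h replicate 1 or either WT 8 h library. Total RNA of Atp6v1f stood at 347 and 397 CPM at 8 h in Mettl3-KO, above every earlier Mettl3-KO value, and at 209 and 239 CPM at 8 h in WT.

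Grn differed by its labelled share. Grn carried label on 17.9% and 23% of its counts at 0 h, 19.3% and 18% at 1 h, 17.8% and 8.77% at 3 h and 11.5% and 10.4% at 8 h in Mettl3-KO libraries, the second value at 3 h being that of the shallow library. In WT libraries its labelled shares were 35.8% at 0 h, 27.9% and, in the shallow library, 20% at 1 h, 21.6% at 3 h, and 3.43% and 3.2% at 8 h. At 0 h both Mettl3-KO shares were below the WT share, and at 8 h both were above both WT shares. Its share changed by -0.11 ± 0.05 log2 per hour in Mettl3-KO and -0.44 ± 0.06 in WT (± SE), a difference of 0.33 log2 per hour (SE 0.07, edgeR adjusted p = 0.00337) that held without any 1 library. Labelled Grn RNA per unit of library RNA did not pass, at 0.12 log2 per hour (SE 0.10, edgeR adjusted p = 0.587). For comparison, Lamp1 had label on 25.8% and 24.8% of its counts at 0 h and on 4.33% and 5.09% at 8 h in Mettl3-KO libraries, against 38.8% at 0 h and 5.06% and 2.56% at 8 h in WT. Its rates of loss were -0.33 ± 0.08 log2 per hour in Mettl3-KO and -0.37 ± 0.08 in WT.

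**Figure D4:**
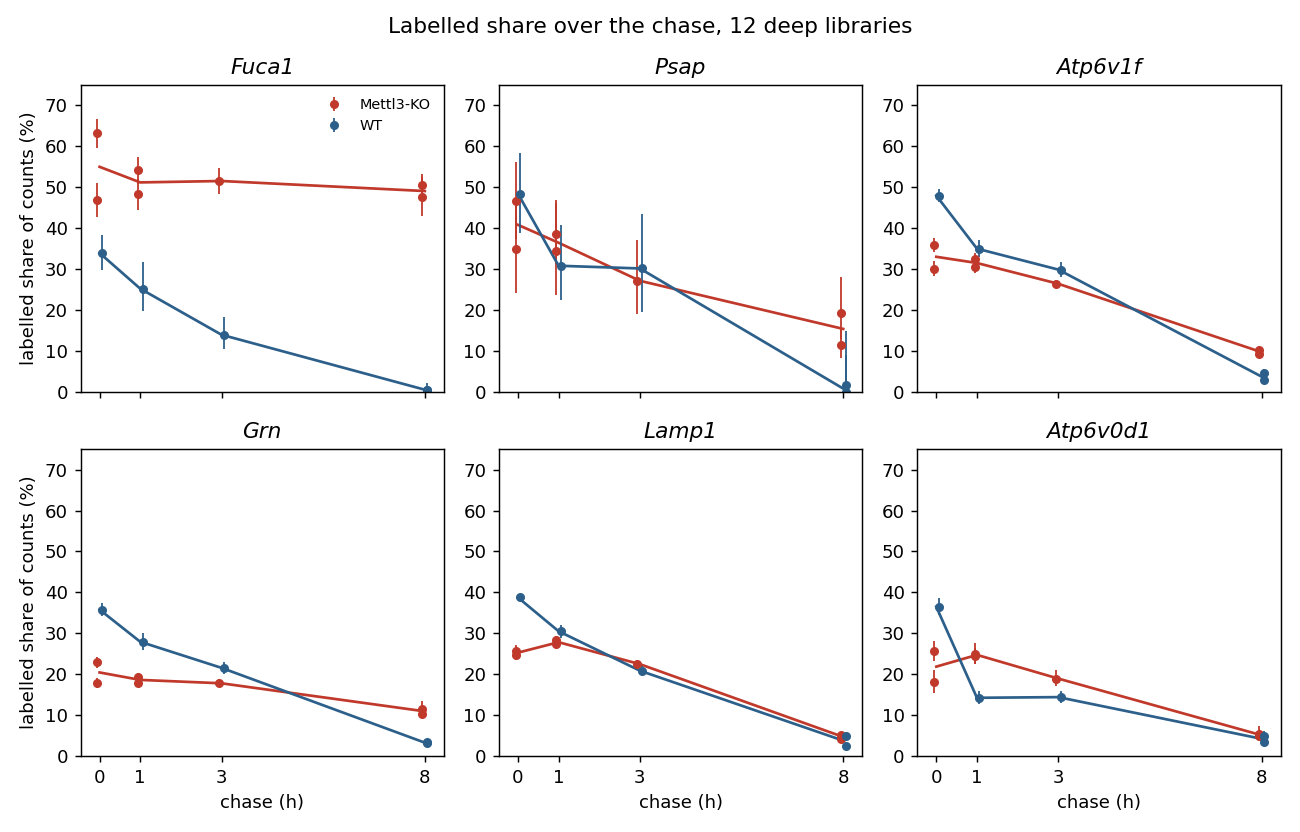
Labelled share of counts (%) over hours of chase for 6 members in the 12 deep libraries, Mettl3-KO in red and WT in blue. Points are libraries with 95% Wilson intervals and lines join the means; Fuca1 stays near 50% in Mettl3-KO, Grn and Atp6v1f start lower and end higher than in WT, and Lamp1 and Atp6v0d1 overlap between the genotypes at 8 h.

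None of the 7 members whose total RNA fell passed the test of the rate of loss, where 2.40% of all genes were slower and 0.205% faster. The difference in rate was 0.02 ± 0.11 for Atp6v0d1, 0.04 ± 0.10 for Lamp1 and -0.02 ± 0.10 for Scarb2 (log2 per hour ± SE). Hexa gave -0.34 log2 per hour (SE 0.14, edgeR adjusted p = 0.174), on the side of faster loss, with half-lives of 1.4 h in Mettl3-KO and 2.64 h in WT. Npc1, Neu1 and Atp6v1h also lay on that side, at -0.26, -0.25 and -0.20 log2 per hour, without passing. Atp6v0e2 had the fastest fitted loss in WT, -0.91 ± 0.18 log2 per hour, and its labelled share at 8 h was 0.690% and 3.17% in Mettl3-KO libraries, against 0 of 297 and 0 of 139 counts in WT libraries (upper 95% Wilson bounds 1.28% and 2.69%). The difference was 0.53 log2 per hour (SE 0.21, edgeR adjusted p = 0.145). Apart from Hexa, Npc1, Neu1, Atp6v1h, Atp6v0e2, Fuca1, Psap and Atp6v1f, the members lay between -0.05 and 0.28 log2 per hour, the highest being Atp6v0e.

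By role, half-lives of the V0 subunits ran from 2.05 h (Atp6v0b) to 5.13 h (Atp6v0e) in Mettl3-KO and from 1.1 h (Atp6v0e2) to 3.09 h (Atp6v0c) in WT. Those of the V1 subunits other than Atp6v1f ran from 1.43 h (Atp6v1h) to 4.62 h (Atp6v1g1) in Mettl3-KO and from 1.55 h (Atp6v1d) to 2.15 h (Atp6v1g1) in WT. Atp6v1h had the highest share of any member at 0 h in WT. It had label on 50.7% and 42.7% of its counts at 0 h and on 1.35% and 1.62% at 8 h in Mettl3-KO libraries, against 67% at 0 h and 6.08% and 3.79% at 8 h in WT. The proteases ran from 2.2 h (Ctsa) to 3.56 h (Ctsd) in Mettl3-KO and from 1.97 h (Ctsb) to 2.35 h (Ctsl) in WT. Ctsd had label on 25.8% and 27.3% of its counts at 0 h and on 6.37% and 8.7% at 8 h in Mettl3-KO libraries, against 41.1% at 0 h and 2.93% and 2.46% at 8 h in WT. Like Grn it was lower at 0 h and higher at 8 h in Mettl3-KO, with a difference in the loss of its share of 0.25 log2 per hour (SE 0.08, edgeR adjusted p = 0.0534) with 14 libraries and 0.26 (adjusted p = 0.00722) with the deep ones. The membrane proteins ran from 1.54 h (Npc1) to 3.02 h (Lamp1) in Mettl3-KO and from 1.32 h (Lamp2) to 2.73 h (Lamp1) in WT, Lamp2 being the quickest in WT. Atp6v0e, the V0 subunit with the longest half-life in Mettl3-KO, carried label on 10.2% and 7.83% of its counts at 8 h in Mettl3-KO and 2.62% and 7.5% in WT. Its difference in rate of loss was 0.28 log2 per hour (SE 0.11, edgeR adjusted p = 0.125) with 14 libraries and 0.29 (adjusted p = 0.0447) with the deep ones.

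The authors' deposited table of half-lives, which gives no unit, lists 17 of the 33 members. By the authors' deposited table, the value was longer for 15 of these 17 in Mettl3-KO (88.2%), against 83.4% of its 6985 genes, with medians of 3.24 in Mettl3-KO and 1.89 in WT for the members. Over all genes of the authors' deposited table the medians were 2.52 in Mettl3-KO and 1.69 in WT. Hexa (1.94 in Mettl3-KO, 2.56 in WT) and Gaa (0.1 and 1.88, the first being the lowest value in that table) were the exceptions in the authors' deposited table. By the fit here Hexa lay on the same side, but Gaa on the other, with half-lives of 3.29 h in Mettl3-KO and 1.92 h in WT. The highest member value in the authors' deposited table was 38.7, for Atp6v1g1 in Mettl3-KO, where the fit here gave 4.62 h. Fuca1, Psap, Atp6v1f and Grn are not among the rows of that table.

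Lysosomal genes outside the rule moved in both directions. With 14 libraries, 9.99% of all genes were called lower in total RNA and 12.1% higher, shares that apply to each list here. Of 47 other lysosomal hydrolases, 9 fell and 7 rose in total RNA, with a median log2 change of -0.18. Ctsc, a dipeptide-removing protease, averaged 4.51 ± 0.802 CPM in Mettl3-KO and 15.2 ± 9.76 CPM in WT libraries (SD, n = 8 and 6), a log2 change of -1.96 (SE 0.28, adjusted p = 0.000326). Fuca2, the second fucosidase, and Man2b1, a mannosidase, changed by -1.59 (SE 0.34, adjusted p = 0.00469) and -0.85 (SE 0.20, adjusted p = 0.00687). Epdr1, a lipid-binding lysosomal protein, rose on the log2 scale by 3.43 (SE 0.33, adjusted p = 1.34e-05), Lipa, the acid lipase, by 2.39 (SE 0.37, adjusted p = 0.000466) and Naaa, an amidase, by 3.36 (SE 0.83, adjusted p = 0.00993). Of 34 other membrane proteins and transporters (median -0.19), 4 fell and Cd63, a tetraspanin, rose (0.94, SE 0.25, adjusted p = 0.0166). Laptm5 (-3.60, SE 0.38, adjusted p = 3.33e-05), known from blood cells, and Litaf (-1.44, SE 0.21, adjusted p = 0.000386) were among those that fell. Of 12 V-ATPase partners outside the Atp6v names (median -0.22), 1 fell: Atp6ap2, an accessory subunit, averaged 113 ± 29 CPM in Mettl3-KO and 176 ± 49.2 CPM in WT libraries (SD, n = 8 and 6), a log2 change of -0.75 (SE 0.23, adjusted p = 0.0293).

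Of 22 genes that sort enzymes to lysosomes (median -0.29), 4 fell, where 9.99% of all genes were called lower and 12.1% higher. Among the 4 were Ap1m1 (-1.25, SE 0.21, adjusted p = 0.00102), Cln6 (-1.29, SE 0.32, adjusted p = 0.00969) and Igf2r (-0.80, SE 0.21, adjusted p = 0.0147). Igf2r is the large mannose 6-phosphate receptor, and M6pr, the small one, rose (0.83, SE 0.26, adjusted p = 0.0335). Of 7 MiT/TFE factors and regulators (median 0.15), Tfeb and Ywhaz fell and Tfe3 rose. Tfeb averaged 22.3 ± 6.23 CPM in Mettl3-KO and 48 ± 9.58 CPM in WT libraries (SD, n = 8 and 6), a log2 change of -1.16 (SE 0.25, adjusted p = 0.00416), and Tfe3 119.9 ± 13.6 CPM in Mettl3-KO and 67.4 ± 24.7 CPM in WT libraries (SD, n = 8 and 6), a log2 change of 0.69 (SE 0.22, adjusted p = 0.037). Ywhaz, a 14-3-3 protein, changed by -0.66 (SE 0.21, adjusted p = 0.0383). Labelled RNA at 0 h was lower for genes that included Ctsc (-2.63, adjusted p = 0.00761), Rnaset2b, Laptm5, Litaf, Ap1m1 and Ap1s1, and higher for Epdr1. Loss of label was slower in Mettl3-KO for Ggh alone of these lysosomal lists (0.78 log2 per hour, SE 0.22, adjusted p = 0.0372). By the labelled share genes with slower loss included Glmp and Cd9, at 0.44 and 0.29 log2 per hour. No gene of these lists was called faster in Mettl3-KO cells by edgeR. Over all genes, 2.40% were slower and 0.205% faster by labelled RNA, and 3.51% and 0.260% by labelled share.

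Endoderm markers, like the members, were mostly lower in total RNA in Mettl3-KO cells. Of 15 endoderm markers tested 9 fell and 1 rose, where 9.99% of all genes were called lower and 12.1% higher. Their median log2 change was -1.90. Their summed level was 1193 to 1809 CPM in deep Mettl3-KO libraries, against 2595 to 3759 CPM in deep WT libraries. Afp was at 0 in all deep libraries and Ttr in all deep Mettl3-KO ones. Of the 10 stem cell markers, Tbx3 (-2.26, SE 0.43, adjusted p = 0.00256) and Esrrb (-0.90, SE 0.27, adjusted p = 0.0278) fell. Macrophage markers, whose cells are rich in lysosomes, summed to 3.78 to 6.68 CPM in deep Mettl3-KO libraries and 7.31 to 23.0 CPM in deep WT libraries, with Csf1r, Lyz2 and C1qa at 0 in all of them. Fibroblast markers summed to 419 to 645 CPM in deep Mettl3-KO libraries and 467 to 519 CPM in deep WT libraries, with Postn at 0 in all of them, and 2 of 9 tested rose and 1 fell. Of the 10 macrophage markers 1 could be tested, Cd68, and it fell. The part of endoderm-marker cells in the members' lower RNA was not tested.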

How the data were processed

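Total counts and T-to-C conversion counts per gene were deposited by the authors as whole numbers for 14 libraries. Tools listed in the submitters' processing notes are Subread 1.5.0 (featureCounts), edgeR 3.32.1 and Trim Galore 0.4.0, with build mm10. Which aligner and conversion caller made the counts, and whether conversions were counted per read or per base, is not given in the sources used here. A further table of the authors holds other values, fitted half-lives and a correlation score, used only where named. The authors' deposited log2 values were not used here.

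Groups came from the titles. Whether replicates came from separate cultures is not in the labels, and p-values therefore describe the spread among these libraries alone, possibly a technical one. Members, lists and tests were chosen with earlier results of these data known. Every member is named. Libraries are given in full for members called with 14 libraries, the 2 most counted per role and those with over 20% label at 8 h, and up to 3 genes per other list and comparison are named, and 1 gene that this rule names is not reported here.

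Counts were tested with edgeR 4.0.16 (R 4.3.3): quasi-likelihood F tests, TMM, genes with at least 10 counts in 6 libraries for total RNA (chase time and genotype) or 10 conversion counts in 3 libraries for label (genotype, hours and their interaction). The offset was the TMM-scaled library total for labelled RNA and the gene's own total plus 0.5 for the labelled share. All 14 libraries shared a fit, since WT at 0 and 3 h has 1 library, taken to vary as the replicated groups do. P-values were Benjamini-Hochberg adjusted over all genes (threshold 0.05), and the SE is the log2 effect over the square root of F. Rows without a gene name held at most 0.0312% of a library and were left out. Replicates of a group all differed by more than sampling noise. The tests were tried on simulated counts. Alternatives were DESeq2 1.42.0, other filters and scalings, a replicate block and leaving out libraries.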

Additional observations from a re-analysis of the deposited data

Results flagged for a closer look

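In 66 groups of members by genotype, 16 had a library far from the others in total RNA, by a rule whose nominal rate is about 1 in 20 groups. That rate was not measured in these data. Of the 16, 15 came from the 2 shallow libraries. In Mettl3-KO 3 h replicate 2 these were Atp6v0c (14 CPM), Atp6v0e2 (39.2 CPM) and Neu1 (101 CPM) above the other Mettl3-KO libraries. Atp6v1d (25.2 CPM), Atp6v1e1 (50.3 CPM), Atp6v1g1 (8.39 CPM), Ctsz (22.4 CPM) and Scarb2 (33.6 CPM) lay below them. In WT 1 h replicate 2 all 7 lay below the other WT libraries: Atp6v0b and Scarb2 at 40.6 CPM, Atp6v1a at 101 CPM, Atp6v1c1 and Ctsz at 20.3 CPM, and Atp6v0e2 and Lamp2 at 0 CPM. In that library 1 count is worth 20.3 CPM. The remaining one was Npc2 in Mettl3-KO 1 h replicate 2, at 253 CPM against 179 CPM in the next Mettl3-KO library.

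The loss of label differed between the genotypes by the test of the difference itself for 4 members, though for Fuca1 a T-to-C difference in the sequence of a line was not tested. The difference in rate, Mettl3-KO minus WT, was 0.66 log2 per hour for labelled Fuca1 RNA and 0.70 for its labelled share, 0.69 for labelled Psap RNA, 0.37 for labelled Atp6v1f RNA and 0.24 for its labelled share, and 0.33 for the labelled share of Grn.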

How the results depend on the processing

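Of 3870 member values recomputed under the alternatives, 3749 kept their side of the threshold, 55 lost the call and 66 gained one. Among the 3749 were 153 uncalled values that changed sign, and 0 called values did. Without the 2 shallow libraries total RNA was higher for 2 members and lower for 15, the slope was lower for 2 and labelled RNA at 0 h was lower for 7. Without a count filter total RNA was higher for 0 members and lower for 4. Under the stricter filter (50 counts in 6 libraries, 27 members tested for label) labelled RNA was lower for 0. DESeq2 called 15 lower in total RNA, 3 lower in slope, 3 lower in labelled RNA and 6 slower in labelled share. TMM factors of the conversion counts gave 0 lower in labelled RNA and 1 slower in loss. The causes were not tested. Leaving out 1 library gave 0 to 1 members higher and 4 to 12 lower in total RNA, 0 to 6 lower in labelled RNA, 1 to 4 slower in loss, 2 to 4 slower in labelled share, and 0 in slope (up or down) and in labelled share at 0 h. Over all genes total RNA called 1769 higher and 1462 lower, against 3190 and 2812 in deep libraries and 1097 and 973 without a filter. DESeq2 called 2358 lower. No gene differed in slope, against 35 up and 44 down in deep libraries and 82 up and 115 down by DESeq2. Loss was slower for 304, against 642 in deep libraries and 684 by DESeq2, and faster for 26, against 44 by DESeq2. Loss of the share was slower for 445, against 744 in deep libraries and 806 by DESeq2, and faster for 33, against 51 by DESeq2 and 65 without a filter. The share at 0 h was lower for 1 gene, against 16 in deep libraries, 12 without a filter and 6 by DESeq2. Labelled RNA at 0 h was higher for 171, against 76 under the stricter filter. Leaving out 1 library moved the all-gene counts too, and with them the share of all genes called. Total RNA then called 1262 to 2800 higher and 1016 to 2469 lower, the highest without Mettl3-KO 3 h replicate 2, the only library to move either by over 1.5 times. Labelled RNA was higher for 77 to 211 and lower for 327 to 990, both lowest without WT 1 h replicate 1, and lower for 423 without Mettl3-KO 0 h replicate 1. Loss was slower for 60 to 514 and faster for 2 (without Mettl3-KO 8 h replicate 2) to 65 (without WT 0 h replicate 1). Loss of the share was slower for 168 (without WT 8 h replicate 2) to 685 (without WT 3 h replicate 1) and faster for 7 to 49, and the share at 0 h was lower for 1 to 9.

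Replicate numbers showed no pairing common to the groups: 2 of 15 group pairs correlated above 0.1 (lowest -0.0806, highest 0.301). The highest was between the groups that hold the shallow libraries, and among the 6 pairs of deep groups the highest was 0.242. Whether equal numbers share a culture or batch is not in the labels. With a replicate block 1 member was higher and 8 lower in total RNA, 0 differed in slope, 1 was lower in labelled RNA, 3 were slower in loss, 0 differed in labelled share at 0 h and 3 were slower in its loss. Over all genes the block moved lower labelled RNA to 466, against 795. Depth limits Psap, Galns and Atp6v0c, and WT at 0 h and 3 h rests on 1 library each.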
